A study of Zea mays with 16 samples.

Results

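Of 1000 maize probes measured in kernels under water stress and full irrigation, 59 are described here: those whose median-centred ratio of stress over well watered signal lay above 0 in each of 4 inbred lines. The rule first ordered the probes by W, the mean background-subtracted well watered level over 16 arrays, and left out the 100 with the highest W and the 200 with the lowest, which keeps the ranks up to 800. It then took the 59 of these 700 probes, or 8.43%, for which R, the line's mean log2 ratio of stress over well watered less the median of each array, was above 0 in RIL60, RIL78, RIL66 and RIL68. The same 700 probes held 92 with R below or at 0 in every line, 194 with R above 0 in 1 line, 209 in 2 lines and 146 in 3 lines. Because R chose the members, their ratios are a description without a test, and their count above 0 says nothing about drought by itself.

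A maize kernel soon after pollination is a young endosperm and embryo inside maternal tissue. Its endosperm passes at this stage from cell division towards filling with starch and storage protein. Kernels at this age depend on sugar and water delivered by the mother plant, and water deficit around flowering is known to reduce the number of kernels that develop. Recombinant inbred lines are descendants of a cross made uniform by selfing, and each one used here is 1 genotype. On a 2-colour array, RNA of both conditions binds the same spots in different dyes. A dye can favour some probes, and the dyes are therefore swapped between arrays.

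The stress samples came from RIL60 and RIL78, which the submitters call tolerant, and from RIL66 and RIL68, which they call susceptible, each set against well watered kernels of its own line. Plants grew in an open field, with soil moisture near 16% for water stress from 3 weeks before flowering and near 30% for the well watered trials. At 10 days after pollination, 6 to 9 kernels of 3 ears were pooled for each RNA, and its poly(A) fraction was labelled. Every line had 4 arrays, numbered 1 to 4, with stress in Cy5 on 2 of them and in Cy3 on the other 2. The submitters call these arrays replicates of the hybridisation. No separate extracts are mentioned, so every p-value below covers the spread between arrays, a spread that may be technical. In such pooled kernels, fewer cells of a type and less RNA per cell cannot be told apart. The files give the probes as IDs alone, and 0 of the 1000 IDs were found in the table of gene names used here, so neither gene functions nor markers of kernel tissues could be set beside the members.

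The share of an array's spots above background, meaning above the local background by 2 of its SDs in at least 1 channel, was 30.3% to 76.3%. The lowest shares were 30.3% on replicate 3 of RIL66, 33.7% on replicate 1 of RIL78 and 38.3% on replicate 1 of RIL68. In RIL60, RIL78 and RIL68 the arrays resembled each other by dye: over all probes the log2 ratios of arrays with the stress sample in the same dye correlated at 0.21 to 0.72, and those in opposite dyes at -0.08 to 0.15. RIL66 stood apart, with correlations of 0.37 to 0.63 among its 4 arrays whatever the dye. Its replicate 4 is labelled with stress in Cy5, yet it correlated at -0.23 and -0.28 with replicates 1 and 2 of RIL60 in that dye, and at 0.19 and 0.22 with replicates 3 and 4 of RIL78, which carry stress in Cy3. Labels and file headers named the same dyes for all 16 arrays. The RIL66 means of probes described singly are given with and without it.

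By the rule's own measure the members stood only a little above the centre of their arrays. The mean of R over the 4 lines ran from 0.03 to 0.54 on the log2 scale with a median of 0.14, a 1.10-fold ratio. The lowest of a member's 4 line values had a median of 0.02. It was under 0.05 for 47 members and over 0.1 for 2, a116pe0872 and a116pe0951. R had its lowest, median and highest member at 0.01, 0.06 and 1.01 in RIL60, at 0.002, 0.11 and 0.46 in RIL78, at 0.001, 0.22 and 0.76 in RIL66, and at 0.0003, 0.07 and 0.32 in RIL68. The value was highest in RIL66 for 36 members, in RIL78 for 11, in RIL60 for 8 and in RIL68 for 4.

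The edges of the rule were narrow. Just inside were a116pe0688, with a lowest R of 0.0003 in RIL68, and a116pe0911, with 0.0006 in RIL66. Just outside were a116pe0018, with -0.0005 in RIL68, and a116pe0644, with -0.002 in RIL78. Along W, the members nearest the upper limit were a116pe0975 at rank 141 and a116pe0118 at rank 142, and those nearest the lower limit were a116pe0927 at rank 792 and a116pe0891 at rank 800.

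Most members had low well watered levels. Their ranks had a median of 648, with 5 members up to rank 400 and 38 beyond rank 600. In 7 consecutive windows of 100 ranks up to rank 800, the rule found 2, 1, 2, 7, 9, 18 and 20 members. Outside its limits, 0 of the 100 brightest probes and 70 of the 200 dimmest had R above 0 in all 4 lines. The median of R over all probes of a window moved the same way, being -0.27 for the 100 brightest probes and 0.15 for the 100 dimmest. W holds the same well watered values that R divides by, so the rank and R are not independent. The cause of the trend was not tested. The stress channel of a member was above background on a median of 6 of 16 arrays, against 9 over the 700 probes of these ranks. For the well watered channel the median was 7 arrays, against 11 over the 700. In the stress channel 3 members were above background on all 16 arrays, and in the well watered channel 1 was.

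**Figure D1:**
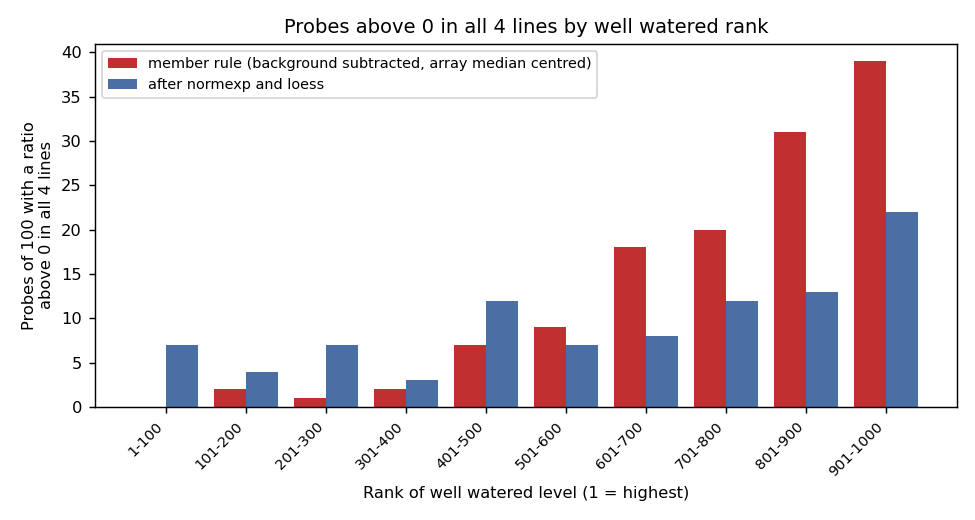
Number of probes in each window of 100 ranks of well watered level (horizontal axis, 1 is the brightest) whose log2 ratio of stress over well watered lay above 0 in all 4 lines, by the member rule and after normexp and loess. The rule's counts climb from 0 to 39 towards dim probes, and the loess counts run from 3 to 22.

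The ratios were therefore computed a second way, with normexp background correction and loess, which sets the ratios of each array to 0 at every brightness. After loess the medians of all probes in the 100-rank windows lay between -0.06 and 0.08, at -0.04 for the 100 brightest and 0.08 for the 100 dimmest. By this measure 21 of the 59 members (35.6%) stayed above 0 in all 4 lines. Over the 700 probes of the same ranks this share was 7.57%, and since both measures come from the same arrays nothing is read from the difference. Another 31 members were above 0 in 3 lines, 6 in 2 lines and 1 in 1 line. Higher signal under drought in every line thus held by this measure for 21 members and not for 38. The authors' deposited log2 ratios placed 32 of the 59 members above 0 in all lines (54.2%, against 9.14% of the 700 probes), and 18 members passed both. Without replicate 4 of RIL66 the loess count was 25 of 59.

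The 21 members are a116pe0872, a116pe0434, a116pe0922, a116pe0953, a116pe0412, a116pe0927, a116pe0474, a116pe0449, a116pe0458, a116pe0984, a116pe0962, a116pe0959, a116pe0481, a116pe0965, a116pe0483, a116pe0404, a116pe0045, a116pe0333, a116pe0504, a116pe0761 and a116pe0688. Most of this list lies outside the naming rule and was chosen after the values were seen. The lowest of a member's 4 line means had a median of 0.05 among them and passed 0.1 in 3, which were a116pe0872 at 0.29, a116pe0434 at 0.18 and a116pe0412 at 0.11. Among the 38 others, a value at or below 0 was seen 5 times in RIL60, 9 times in RIL78 and 16 times each in RIL66 and RIL68.

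All ratios from here on are log2 ratios of stress over well watered after loess. The median of the members was 0.14 for RIL60, 0.13 for RIL78, 0.14 for RIL66 and 0.13 for RIL68, against -0.01, -0.03, -0.01 and -0.01 over the 700 probes. Ratios from these arrays chose the members, so nothing is read from that distance. The 4 medians of the members lay closer together than those of R, in which RIL66 stood highest. The highest of the 4 line values was that of RIL60 for 14 members, RIL78 for 14, RIL66 for 20 and RIL68 for 11. Members with a line value over 0.5 numbered 3 for RIL60, 6 for RIL78, 9 for RIL66 and 1 for RIL68. Averaged over the lines, the members ran from -0.03 to 0.80 with a median of 0.15; 16 were over 0.2 and 3 over 0.5. The spread between arrays of a line had a median SD of 0.31 over the members and 0.31 over the 700 probes. On a single array 33 to 47 of the 59 members were above 0.

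**Figure D2:**
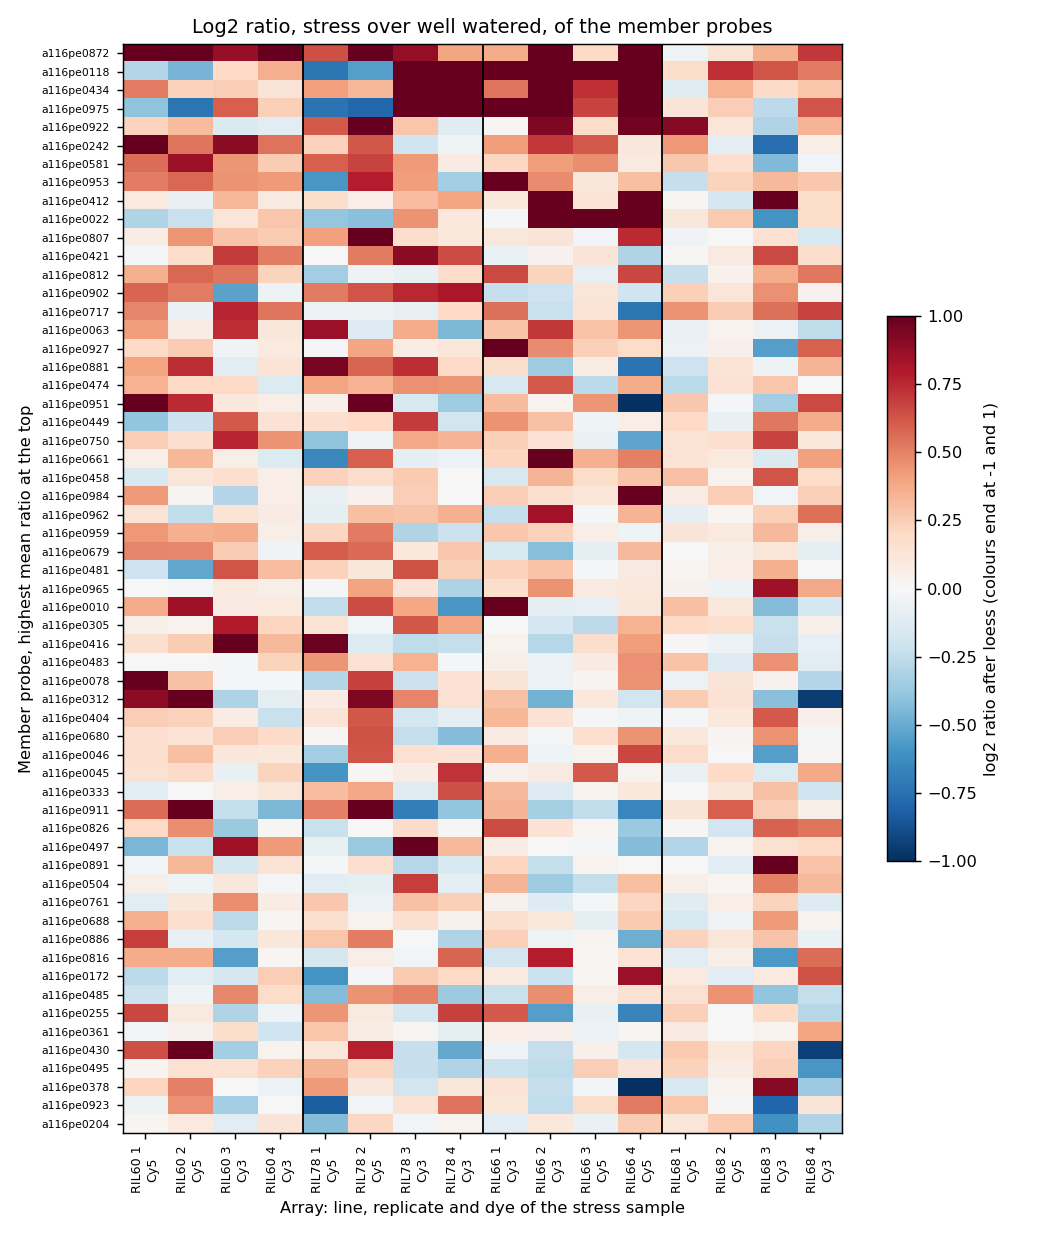
Log2 ratio of stress over well watered after loess for the 59 members (vertical axis) on each of the 16 arrays (horizontal axis, with line, replicate and the dye of the stress sample), red above 0 and blue below 0. No member is red throughout, and the number of arrays above 0 per member runs from 8 to 15.

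No member was above 0 on all 16 arrays. The number of arrays above 0 ran from 8 to 15 with a median of 11, and 23 members (39.0%) reached at least 12, as did 8.43% of the 700 probes. Averaged by dye, 44 members (74.6%) were above 0 both on the 8 arrays with stress in Cy5 and on the 8 with stress in Cy3, and 20.6% of the 700 probes were. Another 7 members were above 0 with stress in Cy5 only and 8 with stress in Cy3 only. The same arrays, of both dyes, chose the members, so higher shares than among the 700 probes follow from the rule. Nothing is read from these differences.

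**Figure D3:**
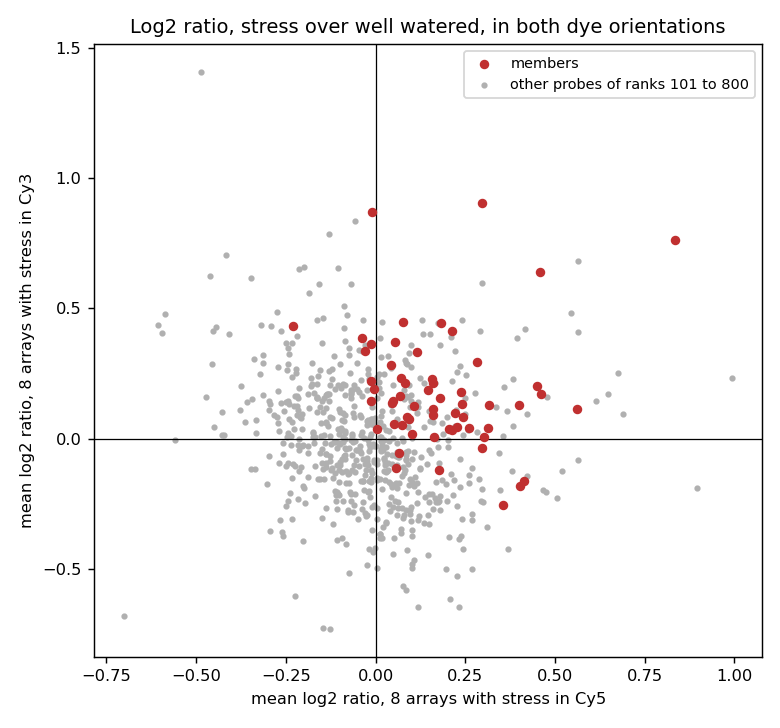
Mean log2 ratio of stress over well watered (after loess) of each of the 700 probes on the 8 arrays with stress in Cy5 (horizontal axis) and on the 8 with stress in Cy3 (vertical axis). Of the 59 members, 44 lie at the upper right, where both means are above 0. The members were chosen by ratios from these same arrays.

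Probe a116pe0872 had the highest mean ratio of the members, 0.80 over the lines. Replicates 1 to 4 read 1.66, 1.92, 0.87 and 1.32 in RIL60. They read 0.65, 1.13, 0.88 and 0.39 in RIL78, 0.37, 1.19, 0.20 and 1.02 in RIL66, and -0.04, 0.13, 0.35 and 0.71 in RIL68. The ratio was thus above 0 on 15 of 16 arrays, with every RIL60 array above every RIL68 array. Neither channel was above background on replicates 1 and 3 of RIL66 or on replicates 3 and 4 of RIL68. In RIL66 the stress channel was above background on 1 of 4 arrays and the well watered channel on 2. The line means were 1.44 ± 0.45, 0.76 ± 0.32, 0.69 ± 0.48 and 0.29 ± 0.32 (SD, n = 4 arrays), and the RIL66 mean was 0.59 without replicate 4. The 2 dye orientations gave like means, 0.83 with stress in Cy5 and 0.76 with stress in Cy3. In RIL68 the well watered channel was not above background on any array and the stress channel was on replicates 1 and 2, whose ratios of -0.04 and 0.13 were the 2 lowest, so no fold is given for that line.

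Probe a116pe0434 was the other member above 0 on 15 of 16 arrays, with a mean of 0.55 over the lines (1.46-fold). In RIL60 its 4 arrays read 0.52, 0.23, 0.24 and 0.13, and in RIL78 0.41, 0.33, 1.11 and 1.03. In RIL66 they read 0.54, 1.60, 0.73 and 1.22, and in RIL68 -0.12, 0.35, 0.19 and 0.28. All RIL66 arrays, with a mean of 1.02 or 0.96 without replicate 4, lay above all arrays of RIL60 and RIL68, and RIL78 overlapped both groups. The stress channel was above background on all 16 arrays and the well watered channel on 15. By the rule's measure, however, 11 of 16 arrays were above 0, and 2 channel values were floored. R was 0.09 in RIL66, below the 0.29 in RIL60, so by that measure RIL66 did not stand highest. By the rule's measure the probe read -0.89 on replicate 1 of RIL66, against 0.54 after loess. Its level on replicate 1 of RIL66, 8.94 in the stress channel and 8.41 in the well watered channel on the log2 scale, was below the 11.95 to 13.20 and the 10.98 to 11.60 of the other 3 arrays. Both its dye means were above 0, at 0.46 with stress in Cy5 and 0.64 with stress in Cy3.

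Probes a116pe0118 and a116pe0975, the members with the highest W, had a common pattern. For a116pe0118 the ratios were -0.29, -0.47, 0.20 and 0.37 in RIL60 and -0.72, -0.55, 1.03 and 1.16 in RIL78. They were 1.54, 1.77, 1.22 and 2.28 in RIL66 and 0.19, 0.73, 0.63 and 0.52 in RIL68. In both tolerant lines the arrays with stress in Cy5 were below 0 and those with stress in Cy3 above 0, whereas all 8 arrays of the susceptible lines were above 0. After loess RIL66 lay above every array of the other 3 lines. Its mean was 1.70 ± 0.45 (SD, n = 4 arrays), or 1.51 without replicate 4. By the rule's measure the RIL66 arrays, at 0.28, 1.18, 0.60 and 0.99, overlapped those of RIL78 and RIL68.

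For a116pe0975 the ratios were -0.40, -0.73, 0.60 and 0.24 in RIL60 and -0.74, -0.78, 1.15 and 1.58 in RIL78. They were 1.56, 1.48, 0.68 and 1.5 in RIL66 and 0.13, 0.25, -0.26 and 0.63 in RIL68. The tolerant lines again split by dye, at 0.24 to 1.58 in Cy3 and at -0.78 to -0.40 in Cy5. RIL66 had the highest mean, 1.30 ± 0.42 (SD, n = 4 arrays), or 1.24 without replicate 4, although RIL78 overlapped it. The loess means of both probes in RIL60 were just below 0, at -0.05 for a116pe0118 and -0.07 for a116pe0975, where R had been above 0 at 0.09 and 0.01. In RIL66, R was lower than the loess means, at 0.76 for a116pe0118 and 0.38 for a116pe0975.

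Probe a116pe0022, which no rule named, also had its high values in RIL66 alone, with ratios of -0.02, 1.83, 1.00 and 2.22 there and a mean of 1.26, or 0.94 without replicate 4. Its other line means were -0.03 in RIL60, -0.06 in RIL78 and -0.01 in RIL68. It was the member above 0 in 1 line only. The non-member a116pe0018 was alike, at 0.99 in RIL66, or 0.98 without replicate 4, and between -0.14 and 0.08 in the other 3 lines.

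Probe a116pe0242 was highest in RIL60, with ratios of 1.13, 0.54, 0.90 and 0.54. It read 0.23, 0.62, -0.20 and -0.05 in RIL78, 0.42, 0.71, 0.61 and 0.11 in RIL66, and 0.44, -0.09, -0.76 and 0.07 in RIL68. All arrays of RIL60 and RIL66 were above 0, and those of RIL78 and RIL68 fell on both sides. Its RIL66 mean was 0.46, or 0.58 without replicate 4. In RIL60 the well watered channel was not above background on any array and the stress channel was on 3 of 4. Stress was 1.71-fold higher as measured, and 1.67-fold over those 3 arrays. Folds given below as at least a value are bounds for dim probes. They set the mean of the brighter side over its 4 arrays against a limit on each array. That limit is the lowest level of any probe above background, or the dim probe's own value where that is higher. A channel not above background can exceed this limit, so the bounds are approximate. For a116pe0242 in RIL60 its own value was used throughout, so its folds are measured ones.

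Probe a116pe0922 averaged 0.34 over the lines and was above 0 in each. Its arrays read 0.22, 0.31, -0.14 and -0.11 in RIL60, 0.61, 1.17, 0.27 and -0.12 in RIL78, 0.01, 0.94, 0.18 and 0.96 in RIL66, and 0.91, 0.12, -0.30 and 0.34 in RIL68. In RIL60 the sign followed the dye. The RIL66 mean was 0.52, or 0.38 without replicate 4. The mean over all arrays with stress in Cy5 was 0.56 and that with stress in Cy3 was 0.11.

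**Figure D4:**
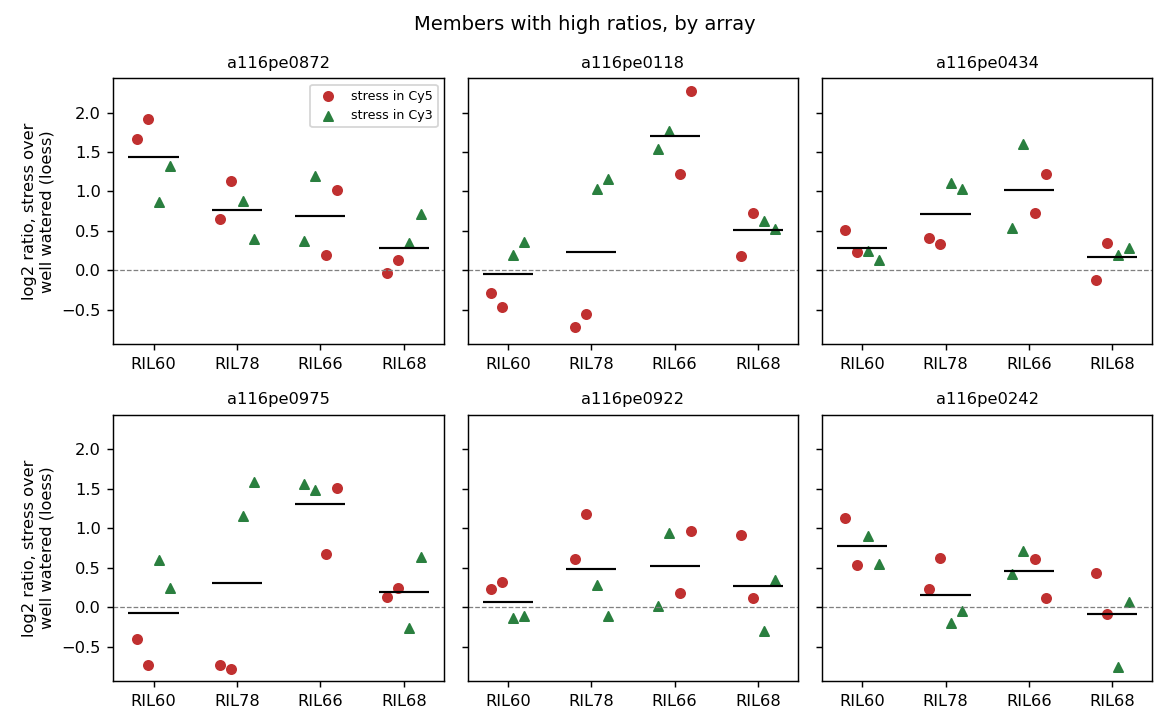
Log2 ratio of stress over well watered after loess (vertical axis) of 6 members on the 4 arrays of each line (horizontal axis), with circles for stress in Cy5, triangles for stress in Cy3 and bars for line means. Probes a116pe0872 and a116pe0434 are above 0 on 15 of 16 arrays, and a116pe0118 and a116pe0975 split by dye in RIL60 and RIL78.

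The remaining members named for a high R had lower ratios after loess than the probes above. Among the 8 with the highest mean of R were a116pe0750, a116pe0717 and a116pe0927, whose means over the lines were 0.18, 0.21 and 0.19. Among the 6 with the highest lowest R were a116pe0951, a116pe0902, a116pe0305 and a116pe0886, at 0.18, 0.22, 0.15 and 0.08. Probes a116pe0750, a116pe0717, a116pe0951, a116pe0902, a116pe0305 and a116pe0886 were below 0 in RIL66, at -0.13 to -0.02, where their R had been 0.07 to 0.34. For all 6 the stress channel of RIL66 was above background on at most 1 of 4 arrays. Without replicate 4 of RIL66, a116pe0750, a116pe0717, a116pe0951 and a116pe0886 stood above 0 in that line, at 0.08 to 0.26. Probe a116pe0927 was above 0 in all lines, but only by 0.01 in RIL68. Its highest line mean was 0.49 in RIL66, or 0.59 without replicate 4, where the stress channel was above background on 1 of 4 arrays and the well watered channel on none.

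Whether the members responded by different amounts in different lines was examined with limma on all 1000 probes. The same ratios chose the members, and requiring the same sign in every line limits how far lines can differ, so the counts of members are shaped by the rule and are given as a description. Between the tolerant lines, RIL60 minus RIL78, limma called 0 of 59 members, against 2.5% of all probes. At an unadjusted p under 0.05 there were 4 members of 59 and 129 probes of 1000. The smallest adjusted p, 0.217, belonged to a116pe0242, with a difference of 0.62 (SE 0.23), and to a116pe0902, with -0.55 (SE 0.21), both chosen here by that p. The median difference over the members was -0.005, and over all probes -0.006.

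Between the susceptible lines, RIL66 minus RIL68, limma again called 0 of 59 members, against 1% of all probes, with 8 members and 123 of 1000 probes at an unadjusted p under 0.05. The smallest adjusted p was 0.0639 for a116pe0118, at 1.19 (SE 0.30), followed by 0.0809 for a116pe0434, at 0.85 (SE 0.23), both chosen here by that p. The count was 3 without replicate 1 of RIL66, and 1 without replicate 1 of RIL78 or replicate 2 of RIL68. The 1 day in the file headers that held arrays of both lines held RIL66 only as replicate 4, beside 3 arrays of RIL68. A fit within that day assumes that this lone array varies like the rest, so it gives no usable test.

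Between the classes, limma called 1 member when lines were fixed effects, against 1.5% of all probes. Probe a116pe0118 had a tolerant minus susceptible difference of -1.02 (SE 0.21, limma's adjusted p = 0.0121), with line means of -0.05 in RIL60 and 0.23 in RIL78 and of 1.70 in RIL66 and 0.52 in RIL68. The arrays of the 2 classes overlapped between 0.19 and 1.16, through the tolerant arrays with stress in Cy3 and the arrays of RIL68. The call was lost with no dye term (adjusted p = 0.0791) and without the 3 arrays with the fewest spots above background (-0.96, adjusted p = 0.0659). A count of 2 was found without replicate 1 of RIL66. No day in the file headers held both classes, so class and day cannot be told apart. With 1 mean per line, the unit that a statement on tolerance needs, limma called 0 members, against 0% of all probes, with a smallest adjusted p of 0.818 and with 3 members and 55 of 1000 probes at an unadjusted p under 0.05.

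The dye term, positive where the ratio was higher with stress in Cy5 and equal to 0.5 times the difference between the 2 orientations, was called for 5 of 59 members (8.47%), against 10.9% of all probes. It was positive for a116pe0430 at 0.30 (SE 0.09, limma's adjusted p = 0.0319) and for a116pe0312 at 0.29 (SE 0.09, adjusted p = 0.0482). It was negative for a116pe0975 at -0.44 (SE 0.12, adjusted p = 0.0240), a116pe0497 at -0.33 (SE 0.09, adjusted p = 0.0193) and a116pe0750 at -0.21 (SE 0.06, adjusted p = 0.0345). Probe a116pe0312 lies outside the naming rule and is given because the count is small. Probe a116pe0497 had ratios of -0.45 and -0.22 in RIL60 and -0.08 and -0.37 in RIL78 with stress in Cy5, and 0.85 and 0.43 in RIL60 and 1.43 and 0.32 in RIL78 with stress in Cy3. In a116pe0430 the split ran the other way, with 0.64 and 1.06 in RIL60 and 0.12 and 0.77 in RIL78 with stress in Cy5, and with -0.34 and 0.03 in RIL60 and -0.23 and -0.51 in RIL78 with stress in Cy3. With the replicate number as a block all 5 calls were lost, and the adjusted p was 0.201 for a116pe0975, 0.162 for a116pe0497 and 0.301 for a116pe0430. In RIL60, RIL78 and RIL68 replicates 1 and 2 carried stress in Cy5 and replicates 3 and 4 in Cy3, and only RIL66 had the reverse. That block therefore took up most of the dye contrast, and its loss of calls does not measure how firm they are. The count also depended on single arrays. It was 0 without replicate 3 of RIL60 or replicate 2 of RIL78, and 1 without replicate 2 of RIL60 or replicate 3 of RIL78. It was 2 without replicate 1 of RIL60, replicate 4 of RIL78 or replicate 1 of RIL68, and 3 without replicate 4 of RIL60, replicate 1 of RIL78 or replicate 3 of RIL68. Without replicate 4 of RIL66 it was 8.

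Some members also differed between lines in their well watered level, the log2 intensity of that channel after normexp, loess and Aquantile scaling. The shares of members called were no higher than those over all probes. The well watered value enters each ratio, and W, the mean well watered value over all lines, set the rule's rank limits, so a member could pass through the line in which it was high. Between RIL60 and RIL78, 6 of 59 members were called (10.2%), against 10.2% of all probes, 2 higher and 4 lower in RIL60. At an unadjusted p under 0.05 there were 18 members and 240 of 1000 probes. Ranked by the well watered level of RIL66 and RIL68 alone, 4 of the 6 stayed within the rank limits. The other 2, a116pe0172 at rank 902 and a116pe0046 at rank 858, were within them only through the tolerant lines. Their differences are given with no test. The count of 6 includes these 2, so nothing is read from it.

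Probe a116pe0750 had well watered levels of 10.44, 10.04, 10.34 and 9.98 in RIL60, against 8.63, 8.69, 8.25 and 8.30 in RIL78. The lines did not overlap, and the difference was 1.73 (SE 0.25, limma's adjusted p = 0.000160). In RIL78 this channel was above background on none of the 4 arrays, which makes RIL60 at least 2.95-fold higher. Under stress the levels were 10.61 ± 0.39 in RIL60 and 8.54 ± 0.21 in RIL78 (SD, n = 4 arrays each), so the same order stood in both conditions.

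Probe a116pe0172 read 9.40, 10.25, 9.76 and 9.08 in RIL60, against 8.71, 8.39, 8.34 and 8.14 in RIL78. Again the lines did not overlap, at a difference of 1.23. The RIL78 channel was above background on no array, and the RIL60 channel on 3 of 4, replicate 2 with the highest value not being among them. RIL60 was at least 2.08-fold higher by all its arrays and at least 1.80-fold by those 3. Stress levels were 9.54 ± 0.44 in RIL60 and 8.36 ± 0.20 in RIL78 (SD, n = 4 arrays each).

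Probe a116pe0581 read 8.82, 8.91, 9.38 and 9.23 in RIL60, against 11.01, 11.07, 10.73 and 10.49 in RIL78. RIL60 lay below RIL78 on every array, by 1.74 on the log2 scale (SE 0.22, limma's adjusted p = 4.32e-05; 3.34-fold). Under stress the levels were 9.61 ± 0.22 in RIL60 and 11.27 ± 0.53 in RIL78 (SD, n = 4 arrays each). Its responses overlapped, at 0.53 ± 0.25 in RIL60 and 0.45 ± 0.26 in RIL78 (SD, n = 4 arrays each), and 14 of its 16 arrays were above 0.

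Probe a116pe0474 read 8.60, 8.73, 9.25 and 8.99 in RIL60, against 10.60, 10.62, 10.55 and 9.93 in RIL78. The difference was -1.54 (SE 0.25, limma's adjusted p = 0.000461), or 2.90-fold lower in RIL60, with no overlap. Stress levels were 9.05 ± 0.27 in RIL60 and 10.84 ± 0.31 in RIL78 (SD, n = 4 arrays each). RIL66 and RIL68 were near RIL60, with well watered means of 8.70 and 8.58.

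Probes a116pe0046 and a116pe0242 completed the 6. Probe a116pe0046, outside the naming rule and given because the count is small, stood at 8.42 ± 0.20 in RIL60 and 9.75 ± 0.80 in RIL78 (SD, n = 4 arrays each; difference -1.33), at least 2.44-fold lower in RIL60. Probe a116pe0242 stood at 8.61 ± 0.07 in RIL60 and 9.65 ± 0.49 in RIL78 (SD, n = 4 arrays each), 2.06-fold lower in RIL60 as measured. The difference was -1.04 (SE 0.29, limma's adjusted p = 0.0258). Its stress levels, 9.38 ± 0.34 in RIL60 and 9.80 ± 0.44 in RIL78, overlapped. Both probes had a well watered signal above background on no array of RIL60 and on 3 of 4 arrays of RIL78. Within the 1 day that held 3 arrays of RIL60 and 4 of RIL78, 5 members were called. Among them were a116pe0750 at 1.63, a116pe0581 at -1.86 and a116pe0474 at -1.67 (limma's adjusted p of 0.00194 to 0.00503). The 5 include a116pe0172 and have no share over all probes beside them, so nothing is read from that count.

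**Figure D5:**
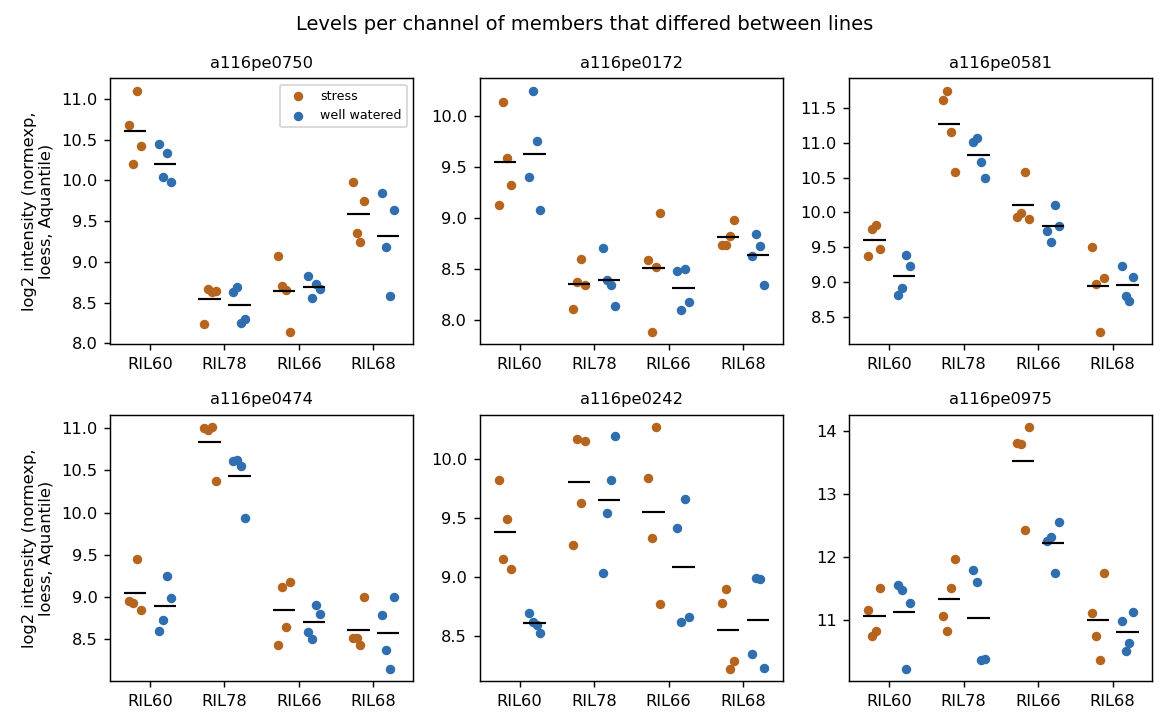
Log2 intensity (vertical axis) of 6 members whose well watered level differed between lines, in the stress channel and the well watered channel of each line (horizontal axis), with points for 4 arrays and bars for means. The gap between RIL60 and RIL78 appears in both conditions for a116pe0750, a116pe0172, a116pe0581 and a116pe0474, and that between RIL66 and RIL68 in both for a116pe0975 and a116pe0581.

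Between RIL66 and RIL68 the well watered level differed for 2 of 59 members (3.39%), against 5.2% of all probes, both higher in RIL66. At an unadjusted p under 0.05 there were 8 members and 192 of 1000 probes. Probe a116pe0975 read 12.24, 12.31, 11.74 and 12.55 in RIL66, against 10.98, 10.50, 10.62 and 11.12 in RIL68. The lines did not overlap, and the difference was 1.41 (SE 0.32, limma's adjusted p = 0.0129; 2.65-fold). Under stress the levels were 13.52 ± 0.74 in RIL66 and 10.99 ± 0.59 in RIL68 (SD, n = 4 arrays each). Probe a116pe0581 read 9.73, 9.57, 10.11 and 9.81 in RIL66, against 9.23, 8.80, 8.72 and 9.08 in RIL68, a difference of 0.85 (SE 0.22, limma's adjusted p = 0.0326; 1.80-fold). In RIL68 its stress channel was above background on none of the arrays and its well watered channel on 1 of 4.

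Both calls between RIL66 and RIL68 were lost without replicate 4 of RIL66, where a116pe0975 stood at 1.37 (limma's adjusted p = 0.05003) and a116pe0581 at 0.86 (adjusted p = 0.0740). Probe a116pe0581 also missed the threshold without replicate 1 or 3 of RIL66 (adjusted p = 0.0632 and 0.0979) and without replicate 2 or 3 of RIL68 (0.0781 and 0.0740). It missed it as well without background correction, where the difference was 0.33 (adjusted p = 0.101), with subtraction floored at 50, at 0.49 (adjusted p = 0.0606), with the replicate number as a block (adjusted p = 0.0603), with array weights (adjusted p = 0.0569) and without the 3 arrays with the fewest spots above background (adjusted p = 0.0970). Within the 1 day that held both lines, with replicate 4 of RIL66 alone against 3 arrays of RIL68, the differences were 1.57 and 0.58, values that a lone array leaves without a usable test.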

How the data were processed

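RNA of stressed and well watered kernels was hybridised together on 16 2-colour arrays, 4 per line. Per the file headers, the deposited files hold ScanArray output: for every spot, a linear intensity per channel with the local background and its SD, without subtraction. No value was below 0 or above 65535. The arrays carry 2 spots for each of 1000 probes plus 48 control spots, which were left out, as were 106 probe spots that the authors had excluded. The deposited table of log2 ratios, made by steps not stated in the sources used, was matched to the spots by slide position and probe name (correlations of 0.88 to 0.99 per array) and used as an alternative. That match gives its direction as stress over well watered, and its scale stays partly unknown.

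For the member rule, the background was subtracted, values were floored at 50 and log2 ratios were centred on each array's median. For all tests, intensities were corrected with normexp (offset 50) and normalised by loess within arrays, spots were averaged per probe, and the labelled dyes gave the sign. Both steps assume that most probes do not change. Levels per channel were scaled with Aquantile. limma 3.58.1 in R 4.3.3 (lmFit, eBayes) was fitted to all 1000 probes with terms for line and dye, using Benjamini-Hochberg adjustment and a threshold of 0.05. Figures were drawn with matplotlib 3.10.9. Folds of dim probes are approximate bounds or, for a116pe0242, measured values. The number of arrays and the signal over background limit the precision.

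The members and the lists were chosen with earlier results of these data known. Named members were the 8 with the highest mean R, the 6 with the highest lowest R, any above 0 on all 16 arrays (none was), those at the edges of the rule and those called, 2 per direction or the 3 largest dye terms. Gene lists and tissue markers could not be used, since 0 of 1000 probe IDs were found among 49888 rows of gene names. Columns of other samples numbered 0. In simulations that changed 200 of 1000 probes, limma called, among those changed by 1 on the log2 scale, 89% for RIL60 minus RIL78, 81% for RIL66 minus RIL68, 99% for tolerant minus susceptible with arrays as units and 100% for the dye term. For the well watered differences it called 60% within the tolerant and 64% within the susceptible class. Among those changed by 0.5 the shares were 34%, 25%, 72%, 98%, 13% and 16%, listed alike. With 1 mean per line, tolerant minus susceptible was called for 99% of those changed by 1 and 50% of those changed by 0.5. The simulated noise was independent and normal, with no differences between the lines of a class. More probes were changed than were called in any comparison of the data, which eases the adjustment. These shares may therefore be too high for the data. Alternatives changed the background correction, normalisation, source of values, dim probes, excluded spots, dye term, blocks, weights, scaling and the arrays included.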

Additional observations from a re-analysis of the deposited data

Results flagged for a closer look

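In 108 groups of 4 arrays, the named members' ratios and their called well watered levels were searched for an array far from the other 3. Chance alone gives about 1 in 20, and 6 were found. In the log2 ratio of stress over well watered, a116pe0750 read 0.67 on replicate 3 of RIL68, against 0.11 to 0.17 on the other arrays of that line. Probe a116pe0717 read 0.20 on replicate 4 of RIL78, against -0.08 to -0.05. Probe a116pe0902 read 0.12 on replicate 3 of RIL66, against -0.23 to -0.20. Probe a116pe0975 read 0.68 on replicate 3 of RIL66, against 1.48 to 1.56, and a116pe0430 read -0.93 on replicate 4 of RIL68, against 0.10 to 0.26. In the well watered level, a116pe0474 read 9.93 on replicate 4 of RIL78, against 10.55 to 10.62. Replicate 3 of RIL66, which appears in 2 of the 6, was the array with the smallest share of spots above background, 30.3%.

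With lines as fixed effects, limma called 1 member (1.69%) between the classes, against 1.5% of all probes. The response of a116pe0118 was -1.02 tolerant minus susceptible, set against the spread between hybridisations (limma's adjusted p = 0.0121), in ratios that also chose the members. By 1 mean per line it did not pass (limma's adjusted p = 0.818), so no difference between the classes is read from the call.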

How the results depend on the processing

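The number of members was 129 over all ranks, with the 59 among them. With 1 array left out it ran from 46 to 82, and without the 3 arrays with the fewest spots above background it was 55. Leaving out 1 array, the members called numbered 0 in every fit for RIL60 minus RIL78, 0 to 3 for RIL66 minus RIL68, 1 to 2 for tolerant minus susceptible with lines as fixed effects and 0 to 8 for the dye term. For the well watered level they numbered 5 to 8 between RIL60 and RIL78 and 0 to 3 between RIL66 and RIL68. No share over all probes is given for these fits, so the counts are not read as a trait of the members. The median ratio of the members ran from 0.120 to 0.186 in RIL60, 0.116 to 0.194 in RIL78, 0.107 to 0.153 in RIL66 and 0.0765 to 0.140 in RIL68 over the same fits.

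Without background correction the calls were 2 for RIL66 minus RIL68 and 2 for the dye term, and the medians were 0.0646, 0.0752, 0.0548 and 0.0427 in RIL60, RIL78, RIL66 and RIL68. With subtraction floored at 50 there were 2 dye calls and 1 for the well watered level of RIL66 minus RIL68, and the medians were 0.0791 in RIL60 and 0.0571 in RIL66. Median centring gave 1 call for RIL66 minus RIL68 and a median of 0.207 in RIL66. The deposited ratios gave 1 such call and medians of 0.0814 in RIL60 and 0.0774 in RIL66. Leaving out dim probes, which kept 45 members, gave 1 such call and a median of 0.186 in RIL60, and scaling the arrays gave 1. Without a dye term no member (0) differed between classes. With array weights 4 did, and the dye calls were 12. Chosen after seeing the data, the fit without the 3 poorest arrays gave 0 calls between classes, 0 for the dye, 1 for the well watered level of RIL66 minus RIL68 and a median of 0.194 in RIL78. Within the day that held RIL66 (replicate 4 alone) and RIL68 the calls were 2 for the response and 0 for the well watered level, which a single array cannot test. The cause of these moves was not tested. Shares over all probes are not given here either, so the counts do not tell whether the moves concern the members in particular. The well watered calls of a116pe0750, a116pe0581 and a116pe0474 between RIL60 and RIL78 passed in every alternative run. None of the called values followed through the alternatives changed direction. The dye calls of a116pe0312 and a116pe0750 and the well watered calls of a116pe0242 and a116pe0046 were not followed. Of 500 recomputed mean ratios of the 21 named members, 2 changed sign. All stayed within 1 SD of the probe's ratios over all 16 arrays, a wide limit that includes differences between lines and dyes. Within that limit the mean of a116pe0872 ran from 0.39 to 0.88 (0.80 in the main fit). The mean of a116pe0242 ran from 0.15 to 0.38 (0.33 in the main fit).

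Replicate numbers are shared by the lines, but arrays with the same number did not deviate together throughout (correlations of -0.29 to 0.34, dye removed), so they were not treated as pairs. With the replicate number as a replicate block the dye calls were 0 and the well watered calls of RIL66 minus RIL68 were 1, and no other count of calls changed. Outside RIL66 the replicate number and the dye largely coincide, so this block cannot judge the dye calls.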

Other observations

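Duplicate spots did not always place a member alike. Each probe has 1 spot in the upper and 1 in the lower array row of a slide, and the correlation between the log2 ratios of the pair ran from 0.23 to 0.84 per array. Upper spots alone placed 42 of the 59 members above 0 in all 4 lines by the rule's measure, lower spots alone placed 29, and 19 were placed there by both. The mean of both spots chose the members, and the shares over the 700 probes are not given, so nothing more is read from these counts. Probes in the 4 columns of the slide held 13, 16, 11 and 19 members among 165, 169, 183 and 183 of the 700 probes. None of the 13 probes of the separate ID series beginning a116pe2 was a member.

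Some members outside the naming rule had positive ratios on many arrays after loess. Probe a116pe0412 was above 0 on 14 of 16, with values of 1.12 and 1.21 on replicates 2 and 4 of RIL66 and 1.00 on replicate 3 of RIL68, while its other 13 arrays lay between -0.17 and 0.39. Probe a116pe0458 was also above 0 on 14 of 16 arrays, at small values that reached 0.63. Probe a116pe0953 was steady in RIL60, at 0.51, 0.57, 0.45 and 0.42, and not in RIL78, at -0.58, 0.79, 0.42 and -0.34. These 3 were chosen after their values were seen.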
